A study of Mus musculus with 8 samples.

Results

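The mitosis genes described here are 46 genes whose products carry a cell from mitotic entry to cytokinesis, measured in embryonic mouse hearts with and without SIRT1. They were taken by name from a list, and every non-control probe whose accession mapped to a listed gene was kept, which gave 71 probes for 45 of the genes out of 28215 named probes of 19092 genes. *Prc1*, which encodes a central spindle bundling protein, matched no probe. The list itself uses no difference between the genotypes, but it was drawn up with earlier results of these arrays known, so the direction of the group is given below as a description and with no test of its own. At E18.5, whole-heart RNA from 4 WT and 4 SIRT1 KO embryos was read on Agilent arrays with a single dye, 1 array per heart. Embryos of both genotypes were C57BL/6 by the labels (C57BL/6J in the study's methods), came from dams on normal chow, and received no treatment. SIRT1 is a protein deacetylase that uses NAD+, and the SIRT1 KO embryos lacked it in the whole body from the germ line on. No heart cell type was therefore singled out by the deletion, and the labels do not say which embryos were littermates.

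A cell enters mitosis when CDK1 bound to a B-type cyclin becomes active, with help from the CDC25 phosphatases, PLK1 and Aurora kinases. The chromosomes are compacted by condensin and topoisomerase II, and the kinetochores attach them to the spindle while the spindle assembly checkpoint holds back anaphase. When all chromosomes are attached, CDC20 activates the anaphase-promoting complex, cyclin B and securin are destroyed, and separase opens the cohesin rings. Heart muscle cells still divide in the fetus and largely leave the cell cycle around birth, often after a mitosis without cytokinesis. The cells that these transcripts came from were not identified. In RNA of a whole heart, fewer mitotic cells and less of a transcript in each mitotic cell cannot be told apart.

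Values are log2 of the processed signal minus the 75th percentile of the same array, so 0 is the level that 75% of the probes lie below, and levels of different probes are not comparable. Differences are SIRT1 KO minus WT on this log2 scale. An array had 59.5% to 64.9% of its probes well above background, and its 75th percentile was 939 to 1033 intensity units (WT) or 777 to 906 (SIRT1 KO). Each genotype had a slide and a scan day of its own, and differences between slides or days cannot be told apart from genotype. *Sirt1* RNA was not lower past the threshold on either of its probes: the difference was 0.54 on one probe (limma, adjusted p = 0.0323) and -0.11 on the other (limma, adjusted p = 0.589). It is not known whether these probes lie in the deleted part of the gene. Every direction below is therefore that of hearts labelled SIRT1 KO. All 16 heart muscle markers were well above background on all 8 arrays and none differed past the threshold. Their median difference was 0.11, with 11 above 0 and 5 below. At an unadjusted p under 0.05 by limma there were 3, against 20.4% of all named genes. These were *Ttn* at 0.47, *Myh7* at 0.31 and *Tnnt2* at 0.27. All 9 liver markers tested (of 12 listed), *Alb* and *Afp* among them, had a positive difference, with a median of 1.33 and none past the threshold, and the mean level of the list ran from -1.30 to 0.16 on the WT arrays and from -0.97 to 2.34 on the SIRT1 KO arrays. The 3 arrays with the highest liver marker level were SIRT1 KO replicate 1, SIRT1 KO replicate 4 and WT replicate 4.

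Most mitosis genes had lower mean signal in SIRT1 KO hearts, by small amounts that single probes seldom separated from the spread between hearts. Of the 71 probes, 70 were well above background on at least 4 arrays and were tested, and 64 of these had a difference below 0, against 48.3% of all probes tested. The median difference was -0.27, a signal 17.1% lower than in WT, where the median over all 25615 tested probes was 0.01. Only 2 member probes, 1 of *Kif20b* and 1 of *Plk4*, were lower past the threshold of 0.05 on the adjusted p from limma, against 4.88% of all probes called in either direction and 0.91% called lower. No member probe was called higher, against 3.97% of all probes. Under other settings the count of 2 ran from 0 without the 3 arrays highest in liver markers to 33 with no scaling between arrays. Of all probes, 1.52% and 24.8% were called there. At an unadjusted p under 0.05 there were 16 of the 70 probes, against 21.5% of all probes, and 7 to 39 with an array left out (7 without WT replicate 3, against 17.8% of all probes, and 39 without SIRT1 KO replicate 3, against 26.8%). The 16 became 32 with the replicate number as a block (23.9% of all probes) and 8 by the analysis of variance of the study's methods (20.1%). The labels do not say what hearts of the same replicate number share. With the brightest probe of each gene, 41 of 45 genes had a difference below 0, against 51.6% of all named genes, with a median of -0.21 and 0 genes past the threshold by limma or by the analysis of variance of the study's methods where 4.58% of all named genes passed by limma. At an unadjusted p under 0.05 by limma there were 6 of the 45 genes, against 20.4% of all named genes.

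**Figure D1:**
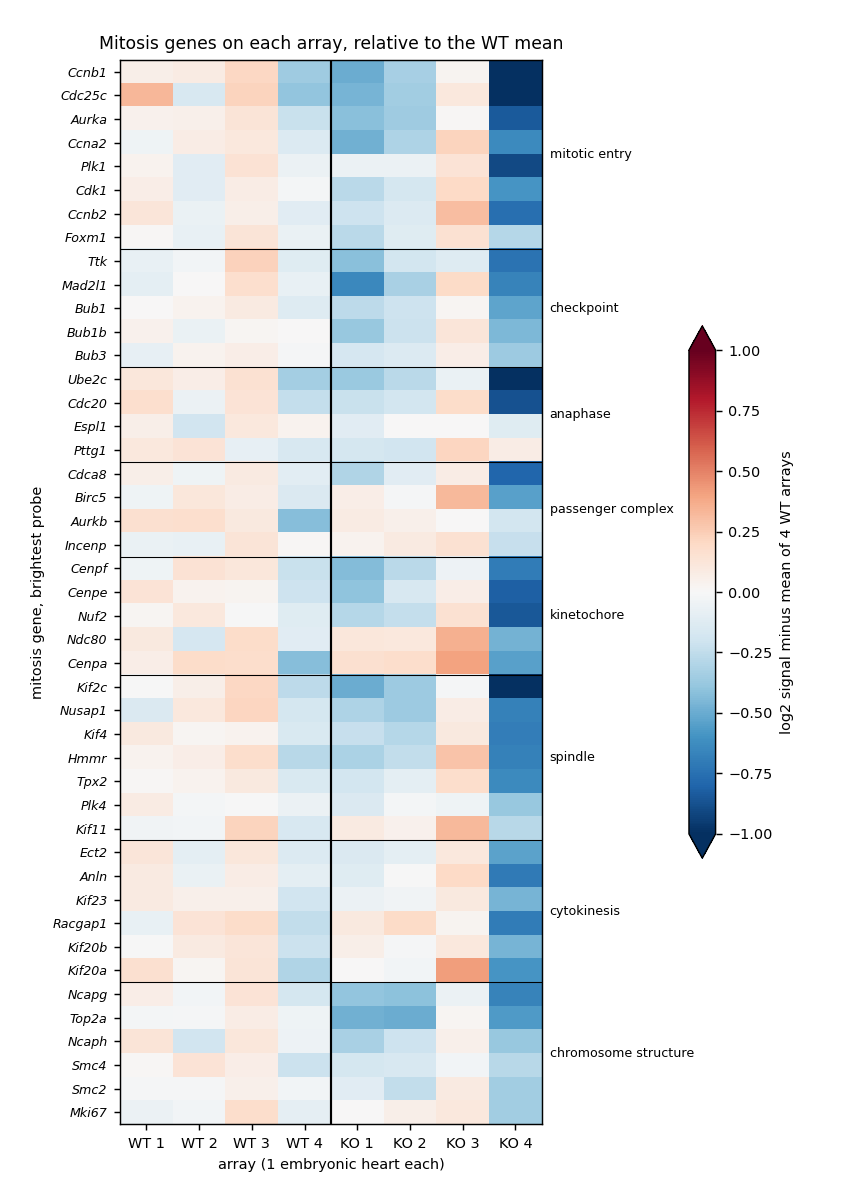
Signal of the brightest probe of 45 mitosis genes (rows, grouped by role) on each array (columns), as log2 signal minus the mean of the 4 WT arrays, with blue for lower and red for higher and with colors that end at -1 and 1. The column of SIRT1 KO replicate 4 is blue in 44 of 45 genes, and that of SIRT1 KO replicate 3 is mostly pale red.

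The hearts labelled SIRT1 KO did not form a single level. In SIRT1 KO replicate 4 the median mitosis gene lay at -0.59 relative to the WT mean, or 66.4% of it, and 42 of 45 genes were below every WT heart. SIRT1 KO replicates 1 and 2 lay at -0.22 and -0.16. SIRT1 KO replicate 3 lay at 0.11, close to WT replicate 3, and 21 of its 45 genes were above every WT heart. Among WT hearts the medians were 0.04, 0.02, 0.11 and -0.14, and WT replicate 4 was the lowest WT heart in 35 of 45 genes. The SD over 4 hearts was larger in SIRT1 KO than in WT for 59 of the 70 probes, against 60.5% of all probes tested. The median SD was 0.28 in SIRT1 KO and 0.16 in WT, where the medians over all probes were 0.15 and 0.13. Without SIRT1 KO replicate 4 the median difference of the member probes was -0.12, with 53 of 70 below 0 and 1 probe past the threshold, where 1107 probes of the whole array passed (4.32%, against 4.88% with all 8 arrays). Without SIRT1 KO replicate 3 it was -0.36, with 69 of 70 below 0 and 9 past the threshold, which were probes of *Bub1b*, *Ccna2*, *Cdca8*, *Kif20b*, *Mad2l1*, *Ncapg*, *Plk4*, *Racgap1* and *Top2a*, where calls over the whole array rose as well, from 1250 to 1825 probes (7.12%). The lowest WT heart and the 2 lowest SIRT1 KO hearts, WT replicate 4 and SIRT1 KO replicates 4 and 1, were also the 3 with the highest liver marker level. With these 3 left out, which leaves 3 WT and 2 SIRT1 KO hearts, the median was -0.09, with 54 of 70 below 0 and 0 past the threshold (10 of 70 at an unadjusted p under 0.05, against 13.8% of all probes). Over the whole array 390 probes passed there (1.52%). The 6 probes that separated the genotypes on all 8 arrays differed there by -0.51 (*Kif20b*), -0.50 (*Plk4*), -0.66 and -0.37 (*Smc2*), -0.53 (*Top2a*) and -0.19 (*Ttk*), and of these *Ttk* moved most from its value on 8 arrays, which was -0.37. These probes were picked for separating the hearts that remain, and the part of liver RNA in the result was not tested.

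The genes varied together from heart to heart. After the genotype means were removed, the median correlation between pairs of the 45 genes over the 8 arrays was 0.85, and 99.0% of pairs were above 0. These pairs share the same 8 hearts, so the 70 probes are far from 70 separate observations. *Tpx2*, *Bub1* and *Aurka*, all on their brightest probe, followed the median of the other members most closely (r = 0.99 each). *Pttg1*, which encodes securin, followed them least, with r = 0.23.

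**Figure D2:**
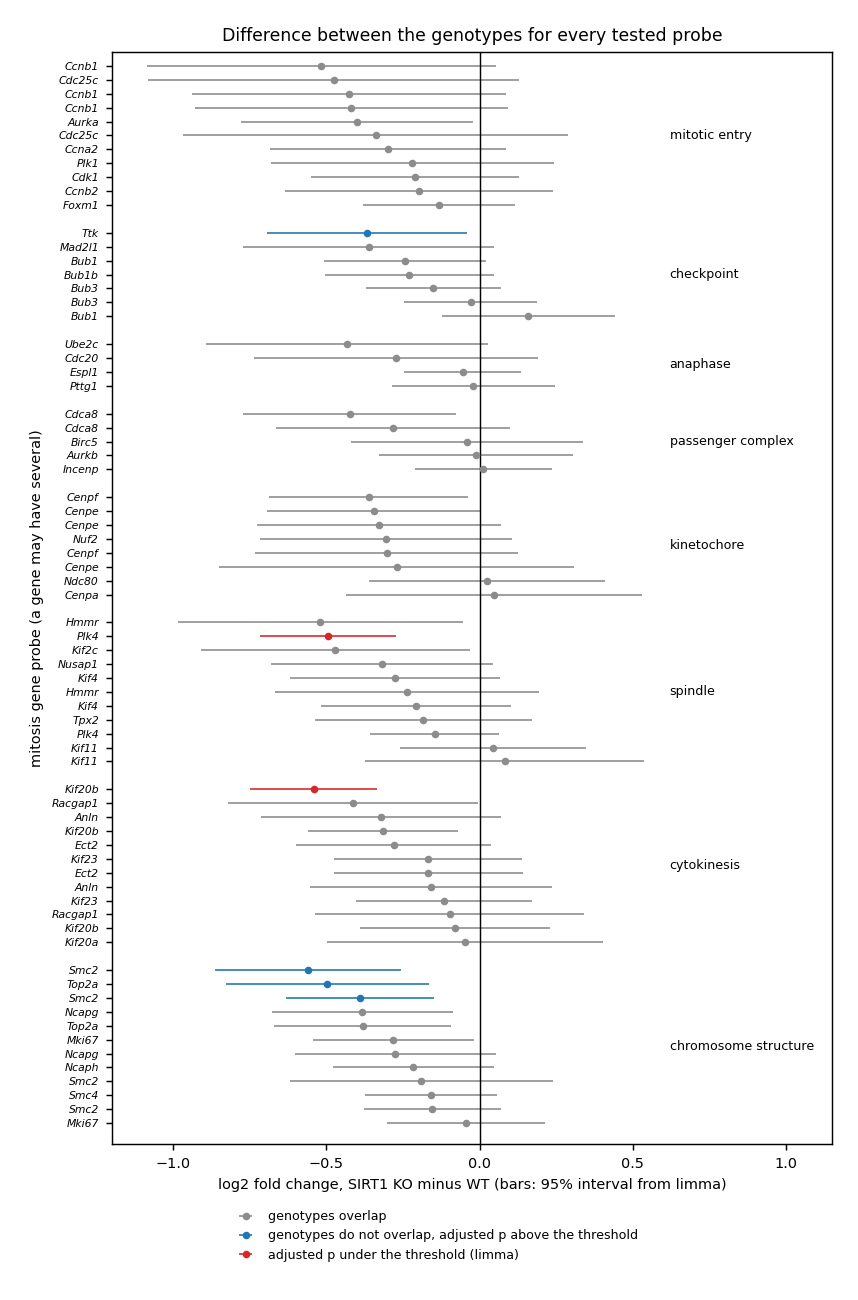
Difference between the genotypes (x axis, log2 fold change, SIRT1 KO minus WT) for the 70 tested probes of 45 mitosis genes, grouped by role, with 95% intervals from limma. Of the 70 points, 64 lie left of 0, and 2 of them, *Kif20b* and *Plk4* in red, are past the threshold.

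The genes of mitotic entry, which are *Cdk1*, *Ccnb1*, *Ccnb2*, *Ccna2*, *Cdc25c*, *Plk1*, *Aurka* and *Foxm1*, all had negative differences on their brightest probes, with a median of -0.26, and none passed the threshold. *Ccnb1*, which encodes cyclin B1, the activating partner of CDK1, had the largest difference. On its brightest probe (A_52_P202770) the log2 signals were 1.37, 1.39, 1.52 and 0.95 in WT hearts and 0.81, 0.98, 1.34 and 0.04 in SIRT1 KO hearts. SIRT1 KO replicate 4 was far below the other hearts, SIRT1 KO replicate 3 sat among the WT hearts and SIRT1 KO replicate 2 just above WT replicate 4, so the genotypes overlapped. The difference was -0.52 (95% interval -1.09 to 0.05; limma, adjusted p = 0.275), and its other 2 probes gave -0.42 and -0.43. The smallest difference of the group was that of *Foxm1*, which encodes a transcription factor of mitotic genes, at -0.13 (limma, adjusted p = 0.517). A second *Cdk1* probe never stood well above background and was not tested.

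All 5 genes of the spindle assembly checkpoint, *Bub1*, *Bub1b*, *Bub3*, *Mad2l1* and *Ttk*, were below 0 on their brightest probes, with a median of -0.24. *Ttk* encodes MPS1, the kinase that recruits the other checkpoint proteins to kinetochores. Its log2 signals were -2.57, -2.52, -2.27 and -2.61 in WT hearts and -2.91, -2.68, -2.62 and -3.23 in SIRT1 KO hearts. Every SIRT1 KO heart was below every WT heart, but SIRT1 KO replicate 3 and WT replicate 4 nearly touched. The difference was -0.37 (SE 0.14; limma, adjusted p = 0.184), which did not pass the threshold. *Bub1*, a checkpoint kinase of the kinetochore, was the only gene with probes of opposite sign, at -0.24 on the brighter probe and 0.16 on the dimmer one.

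Of the anaphase genes, *Ube2c*, the ubiquitin-conjugating enzyme that works with the anaphase-promoting complex, and *Cdc20*, its activator, had differences of -0.43 and -0.27, while *Espl1* (separase) and *Pttg1* (securin) were at -0.06 and -0.02. The log2 signals of *Ube2c* were 3.23, 3.18, 3.27 and 2.77 in WT hearts and 2.74, 2.85, 3.05 and 2.08 in SIRT1 KO hearts. WT replicate 4 lay among the SIRT1 KO hearts, and the difference did not pass the threshold (SE 0.20; limma, adjusted p = 0.258). The chromosomal passenger complex, which corrects wrong attachments at the centromere and then moves to the midzone, had the median nearest 0 of the 8 roles on its brightest probes, at -0.03. *Aurkb*, its kinase, *Birc5* (survivin) and *Incenp*, its scaffold, had differences of -0.01, -0.04 and 0.01. *Cdca8* (borealin) had the largest of the 4, at -0.28 on its brightest probe (limma, adjusted p = 0.368) and -0.42 on its dimmer one (limma, adjusted p = 0.159). On the brightest probe its log2 signals were 4.44, 4.33, 4.47 and 4.27 in WT hearts and 4.08, 4.27, 4.45 and 3.58 in SIRT1 KO hearts, with SIRT1 KO replicates 1 and 4 clearly below the WT range, replicate 2 just below it and replicate 3 inside it.

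At the centromere and kinetochore, *Cenpf*, *Cenpe* and *Nuf2* had differences of -0.36, -0.33 and -0.30, whereas *Ndc80*, which encodes the partner of NUF2 in the microtubule-binding NDC80 complex, was at 0.02 and *Cenpa*, the centromeric histone, at 0.05. None of the 5 passed the threshold. *Cenpf*, a large coiled-coil protein of the outer kinetochore, had log2 signals of 3.17, 3.36, 3.33 and 2.99 in WT hearts and 2.78, 2.94, 3.17 and 2.52 in SIRT1 KO hearts. SIRT1 KO replicate 3 reached the WT range, and the other SIRT1 KO hearts stayed below it (SE 0.14; limma, adjusted p = 0.190).

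Among genes of the spindle, *Kif2c*, *Nusap1*, *Kif4*, *Hmmr*, *Tpx2* and *Plk4* were below 0 on their brightest probes, and *Kif11*, the motor that pushes the spindle poles apart, was at 0.04. *Kif2c* encodes MCAK, a kinesin that takes microtubules apart at the centromere. Its log2 signals were -1.32, -1.26, -1.11 and -1.58 in WT hearts and -1.81, -1.68, -1.33 and -2.32 in SIRT1 KO hearts, with the genotypes overlapping only through SIRT1 KO replicate 3. The difference was -0.47 (SE 0.19; limma, adjusted p = 0.205). *Plk4*, the kinase that starts centriole duplication, fell on its dimmer probe (A_52_P635976). The log2 signals there were -2.08, -2.21, -2.32 and -2.42 in WT hearts and -2.80, -2.83, -2.57 and -2.81 in SIRT1 KO hearts. All SIRT1 KO hearts were below all WT hearts, SIRT1 KO replicate 3 included, and the difference was -0.49 (SE 0.10; limma, adjusted p = 0.0241; exact two-sided permutation p = 0.0286, the smallest that 4 against 4 hearts can give). The brighter *Plk4* probe gave -0.15 (limma, adjusted p = 0.397). The call of *Plk4* was kept when WT replicate 4 or SIRT1 KO replicate 3 was left out and lost when any of the other 6 arrays was, with adjusted p from limma between 0.0175 and 0.0721. It was also lost with the replicate block (limma, adjusted p = 0.0523), by the analysis of variance (0.0650), with no filter on dim probes (limma, adjusted p = 0.0540) and without the 3 arrays highest in liver markers (limma, adjusted p = 0.159).

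The genes of the central spindle and cytokinesis, *Kif23*, *Kif20a*, *Kif20b*, *Anln*, *Ect2* and *Racgap1*, had small negative differences on their brightest probes, from -0.05 for *Kif20a* to -0.17 for *Ect2*, and none passed the threshold. *Ect2*, the exchange factor that activates RhoA at the cleavage site, had log2 signals of 2.58, 2.36, 2.57 and 2.32 in WT hearts and 2.31, 2.36, 2.56 and 1.92 in SIRT1 KO hearts. Only SIRT1 KO replicate 4 was clearly below the WT hearts (limma, adjusted p = 0.512). *Kif20b*, a plus-end kinesin that acts in late cytokinesis, held the probe with the smallest p of all members. On that dim probe (A_52_P115253) the log2 signals were -3.21, -3.32, -2.94 and -3.16 in WT hearts and -3.70, -3.73, -3.61 and -3.76 in SIRT1 KO hearts. The 4 SIRT1 KO hearts lay close together and below every WT heart. The difference was -0.54 (SE 0.09, 95% interval -0.75 to -0.33; limma, adjusted p = 0.0124), a signal 31.3% lower. It passed the threshold with each array left out in turn, but was -0.16 (limma, adjusted p = 0.242) with the normexp background correction, and did not pass without the 3 arrays highest in liver markers (limma, adjusted p = 0.176). The other *Kif20b* probes gave -0.31 (limma, adjusted p = 0.141) and, on the brightest, -0.08 (limma, adjusted p = 0.776).

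**Figure D3:**
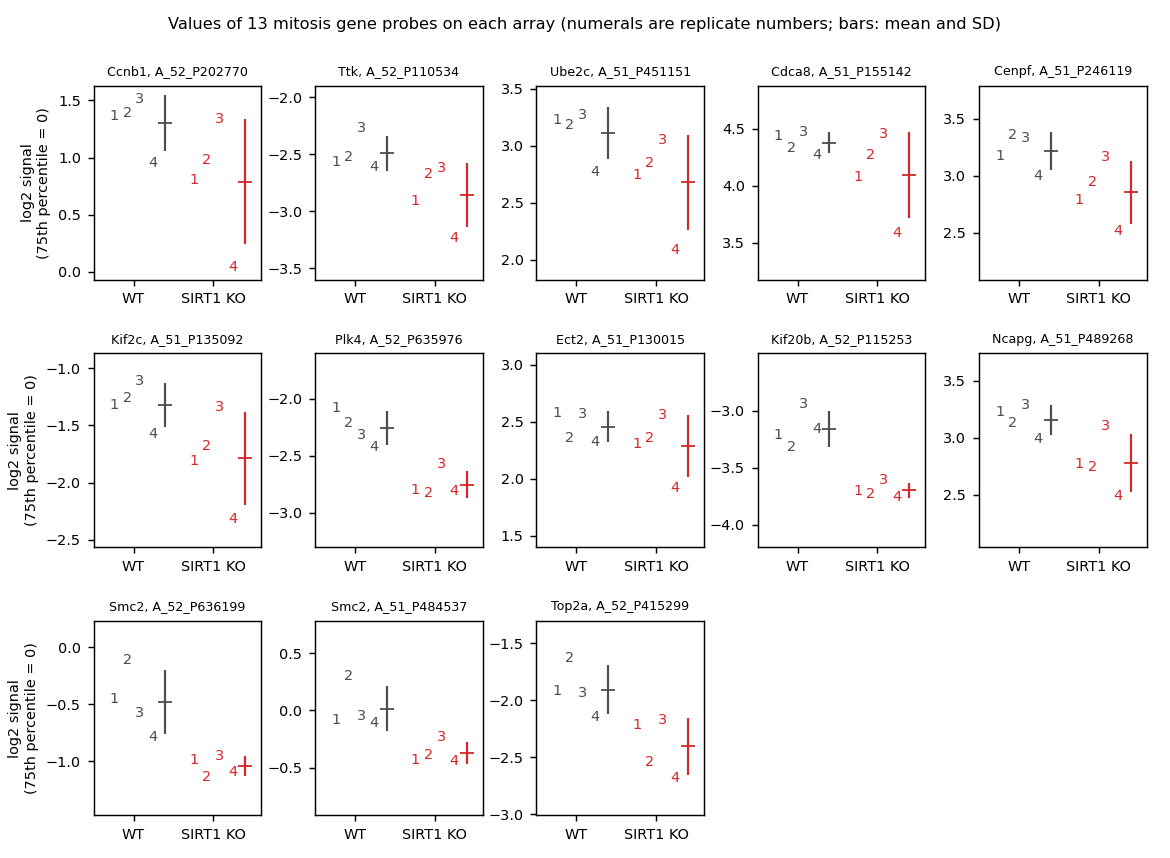
Log2 signal (y axis, 75th percentile of the array at 0) of 13 mitosis gene probes in WT (gray) and SIRT1 KO (red) hearts, with the replicate number as the point and the mean and SD at the right of each group. Each panel spans the same number of log2 units around its own center. The genotypes do not overlap for *Ttk*, *Plk4*, *Kif20b*, both *Smc2* probes and *Top2a*, and in the other panels SIRT1 KO replicate 3 lies among the WT hearts.

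Genes of chromosome structure, *Top2a*, *Smc2*, *Smc4*, *Ncapg*, *Ncaph* and *Mki67*, gave 12 probes, all below 0 and none past the threshold. *Smc2* encodes an ATPase core subunit of condensin, and 2 of its 4 probes separated the genotypes. On the first (A_52_P636199) the log2 signals were -0.46, -0.11, -0.57 and -0.79 in WT hearts and -0.99, -1.14, -0.95 and -1.09 in SIRT1 KO hearts, and the difference was -0.56 (SE 0.13; limma, adjusted p = 0.0503). On the second (A_51_P484537) they were -0.09, 0.31, -0.05 and -0.11 in WT hearts and -0.43, -0.39, -0.24 and -0.44 in SIRT1 KO hearts, and the difference was -0.39 (SE 0.11; limma, adjusted p = 0.0754). SIRT1 KO replicate 3 lay with the other SIRT1 KO hearts on the first probe, and between them and the WT hearts on the second. The brightest *Smc2* probe (A_51_P265660) did not separate the genotypes, since SIRT1 KO replicate 3 was at 0.35 there, above all WT hearts. Its difference was -0.15. *Top2a*, the topoisomerase that untangles sister chromatids, had on its dimmer probe (A_52_P415299) log2 signals of -1.92, -1.63, -1.94 and -2.15 in WT hearts and -2.22, -2.54, -2.17 and -2.68 in SIRT1 KO hearts. The genotypes were separated by the small step between SIRT1 KO replicate 3 and WT replicate 4, and the difference was -0.50 (SE 0.15; limma, adjusted p = 0.0944). *Ncapg*, a regulatory condensin subunit, had log2 signals of 3.23, 3.13, 3.29 and 2.99 in WT hearts and 2.77, 2.75, 3.10 and 2.49 in SIRT1 KO hearts. SIRT1 KO replicate 3 was again inside the WT range, and the difference was -0.38 (SE 0.13; limma, adjusted p = 0.140). *Mki67*, whose product Ki-67 coats mitotic chromosomes and is the common proliferation marker, gave -0.04 on its brighter probe and -0.28 on its dimmer one.

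Of the 6 member probes that separated the genotypes, 5 were not the brightest of their gene. These 6 of the 70 tested were all lower in SIRT1 KO hearts, where 5.08% of all probes were lower without overlap and 8.62% higher without overlap. With the normexp background correction 3 of the 70 were without overlap, where 4.54% of all probes were lower without overlap. The 6 differences were then -0.16 (*Kif20b*), -0.33 (*Plk4*), -0.48 and -0.41 (*Smc2*), -0.28 (*Top2a*) and -0.14 (*Ttk*). Of these 6 probes, only that of *Ttk* was the brightest of its gene. Of 20 genes with several tested probes, 18 had all probes below 0, only *Kif11* had all above 0, and only *Bub1* had both signs. Their 25 dimmer probes had a median difference of -0.32 and their 20 brightest probes one of -0.20. Probes of 1 gene differed by up to 0.46, as in *Kif20b*, and the deposited files hold no probe sequences that would show which part of a transcript each one reads.

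Beyond the members, 65 other genes of mitosis, such as *Aspm*, *Cep55*, *Dlgap5* and *Knl1*, were tested. Of these, 61 had a difference below 0, against 51.6% of all named genes, with a median of -0.21. By limma 0 were past the threshold, and 10 had an unadjusted p under 0.05, against 20.4% of all named genes. The medians of this list in the SIRT1 KO hearts were -0.21, -0.19, 0.09 and -0.53, so that the list medians, though not each gene, stood in the order of the member medians. The medians of DNA replication and S phase genes stood in another order. Of 39 tested, 35 were below 0, with a median of -0.14, but their medians in the SIRT1 KO hearts were -0.31, -0.16, -0.03 and -0.09, so that SIRT1 KO replicate 1 was the lowest and SIRT1 KO replicate 4 was near WT replicate 1, which was at -0.09. At an unadjusted p under 0.05 by limma there were 8 of the 39, against 20.4% of all named genes. Past the threshold was 1 gene, against 4.58% of all named genes. It was *Rfc4*, a subunit of the clamp loader of the replication fork, at -0.40 (limma, adjusted p = 0.0357). Its call was lost when any of the 4 WT arrays or SIRT1 KO replicate 1 or 2 was left out, with adjusted p between 0.0674 and 0.103.

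Of 24 regulators of mitotic entry and transcription, 14 were below 0 and 10 above, with a median of -0.03. By limma 2 were past the threshold, against 4.58% of all named genes. At an unadjusted p under 0.05 by limma there were 5, against 20.4% of all named genes. The first was *Cdc25a*, the phosphatase that activates CDKs at the G1/S step and at mitosis, lower at -0.64 (limma, adjusted p = 0.0294). *Cdkn1a*, which encodes the CDK inhibitor p21, was lower as well, at -0.34 (limma, adjusted p = 0.0372). For both, all SIRT1 KO hearts lay below all WT hearts. The *Cdkn1a* call was lost with any 1 array left out (adjusted p from 0.0506 to 0.0928) and the *Cdc25a* call with 6 of the 8, all but SIRT1 KO replicates 1 and 3. With the normexp background correction *Cdc25a* was at -0.24 (limma, adjusted p = 0.125). The 17 subunits and partners of the anaphase-promoting complex had a median of -0.08, and the 12 genes of cohesin, the ring that holds sister chromatids together, one of -0.01, with 0 past the threshold by limma in either list (1 and 0 at an unadjusted p under 0.05).

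**Figure D4:**
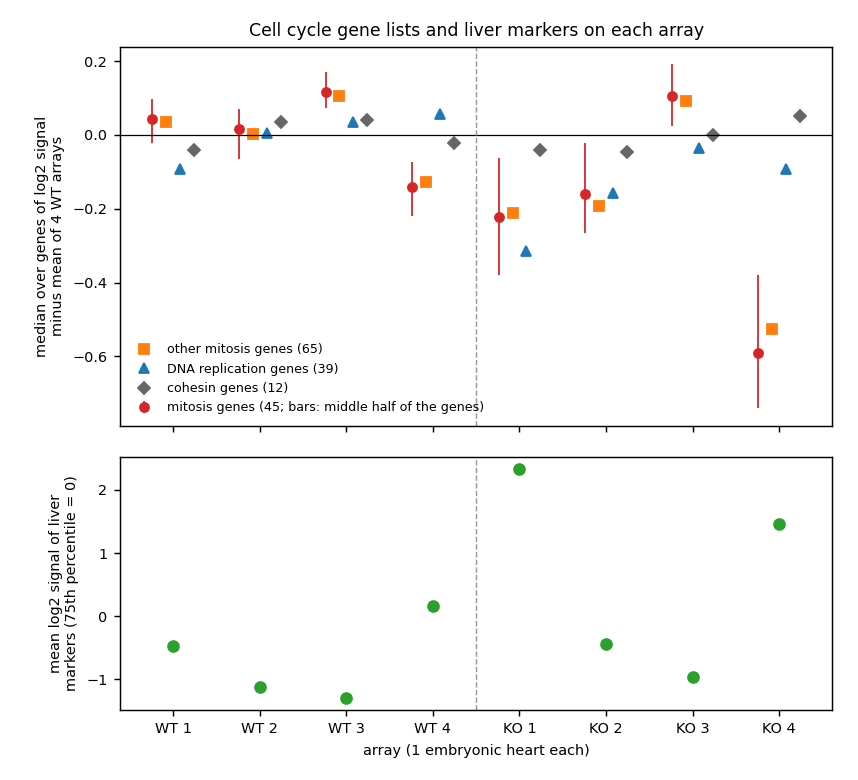
Upper panel, median over the genes of each list of log2 signal minus the mean of the 4 WT arrays, for each array, with bars for the middle 50% of the mitosis genes (25th to 75th percentile). Lower panel, mean log2 signal of the liver markers on the same arrays. The mitosis genes and the other mitosis genes are lowest in SIRT1 KO replicate 4 (-0.59 and -0.53), while the DNA replication genes are lowest in SIRT1 KO replicate 1 (-0.31).

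The promoters of the members were also read for 2 elements known from genes of this phase. The CHR element, TTTGAA, is bound by the MuvB complex, which represses these genes as part of DREAM and activates them with B-MYB and FOXM1, and CCAAT boxes are bound by NF-Y. RefSeq promoter windows (GRCm38.p6, 250 bases before to 50 bases after each start) were found for 38 of the 46 genes, 41 windows in all, and both strands were searched. TTTGAA stood in 31 windows (75.6%) and in 17.9% of all 32851 windows. CCAAT stood in 30 windows (73.2%) and in 37.4% of all windows, and both stood in 27 windows (65.9%) and in 6.95% of all. The 2 elements overlapped in 1 member window. A match of these letters is a description and not a measured site. The 27 tested genes with TTTGAA had a median difference of -0.21 and the 10 without it one of -0.27. Below 0 were 24 of the 27 and all 10 of the others. Whether the element has a part in the differences was not tested.

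Shown are 150 bases of promoter, 120 before and 30 after the start, in the direction of the gene, for the genes with the probes past the threshold (*Kif20b*, *Plk4*), for *Top2a* and *Ttk*, whose genotypes did not overlap on 1 probe, for *Ube2c*, the anaphase gene with the largest difference, and for *Ccnb2*, a B-type cyclin that follows the other members closely. Capitals mark TTTGAA and CCAAT or their reverse complements TTCAAA and ATTGG.
Kif20b (chr19:34922238-34922387, plus strand): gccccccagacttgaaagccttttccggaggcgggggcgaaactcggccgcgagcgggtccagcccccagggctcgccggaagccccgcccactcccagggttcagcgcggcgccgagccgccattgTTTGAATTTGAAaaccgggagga
Plk4 (chr3:40799831-40799980, plus strand): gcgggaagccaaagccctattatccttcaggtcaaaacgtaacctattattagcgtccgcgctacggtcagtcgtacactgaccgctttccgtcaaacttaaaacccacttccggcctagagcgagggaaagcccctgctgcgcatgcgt
Top2a (chr11:99024160-99024309, minus strand): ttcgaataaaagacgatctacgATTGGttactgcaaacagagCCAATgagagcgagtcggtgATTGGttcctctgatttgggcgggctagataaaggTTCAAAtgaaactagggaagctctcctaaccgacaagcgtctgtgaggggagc
Ttk (chr9:83834569-83834718, plus strand): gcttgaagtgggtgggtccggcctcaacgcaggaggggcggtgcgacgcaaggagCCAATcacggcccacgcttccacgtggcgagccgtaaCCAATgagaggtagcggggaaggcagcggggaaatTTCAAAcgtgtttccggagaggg
Ube2c (chr2:164769809-164769958, plus strand): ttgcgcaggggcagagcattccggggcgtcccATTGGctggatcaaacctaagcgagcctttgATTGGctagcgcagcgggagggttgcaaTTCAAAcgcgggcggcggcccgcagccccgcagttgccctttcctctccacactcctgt
Ccnb2 (chr9:70421525-70421674, minus strand): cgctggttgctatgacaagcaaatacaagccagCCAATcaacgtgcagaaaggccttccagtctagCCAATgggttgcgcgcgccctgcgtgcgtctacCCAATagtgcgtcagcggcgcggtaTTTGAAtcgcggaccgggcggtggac

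*Ccnb2*, *Ube2c*, *Top2a* and *Ttk* shared a layout of CCAAT boxes followed by 1 TTTGAA close to the start in the stretch shown. In *Ccnb2* the 3 CCAAT boxes began 87, 54 and 21 bases before the start and TTTGAA at base 5 after it. *Ube2c* had boxes at 88 and 57 bases before the start and TTTGAA at 29. In *Kif20b* TTTGAA was repeated directly after the start, at bases 8 and 14, with no CCAAT in the stretch shown, and the *Plk4* stretch held neither element. Over all members, 46.3% of windows held at least 2 CCAAT boxes, against 11.5% of all windows. Of 36 steps between neighboring boxes of the members, 9 were 31 to 34 bases long. No share of such steps over all windows is given, so this count has no background.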

How the data were processed

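Total RNA of 4 WT and 4 SIRT1 KO hearts at E18.5 was labeled with Cy3 and hybridized to Agilent whole mouse genome arrays. The authors deposited the processed signal intensity of every spot, background-subtracted and error-modeled by Agilent's Feature Extraction software with one-color defaults and without scaling between arrays. The submitters' processing notes name version 12 of it and the file headers 12.0.0.7. A series table deposited by the authors equals these intensities in 100% of spots. Replicate arrays are separate hearts.

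From these, control and outlier spots were left out, log2 was taken, each array was set to its own 75th percentile and spots of a probe were averaged, which gave 41174 probes. No spot was saturated. Accessions were matched without versions to RefSeq names (GRCm38.p6), naming 68.5% of probes. The probes that stood well above background on 4 or more arrays were tested with limma 3.58.1 in R 4.3.3 (lmFit, eBayes) and Benjamini-Hochberg adjustment over all 25615 probes at 0.05. The fit was first tested on simulated data. Single probes were also compared by the exact two-sided permutation test. A gene is reported by its probe with the highest mean signal unless another probe is named. Python 3.11.15, numpy 2.4.6, pandas 2.3.3, scipy 1.17.1 and matplotlib 3.10.9 were used.

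Values per array are given for member probes past the threshold, for those whose genotypes do not overlap, and for the gene of each of the 8 roles with the largest difference on its brightest probe, 13 probes in all, and of the other lists the genes past the threshold are named. The members, roles and lists were chosen with earlier results of these data known. Arrays limit precision by their number, 4 per genotype. Of the other marker lists, 8 red cell precursor genes gave 1 call, embryonic *Hbb-y* at 0.92 (limma, adjusted p = 0.00782), and 13 macrophage, 11 endothelial and 11 fibroblast genes gave 0 (2 at an unadjusted p under 0.05 in each). Of lung and thymus markers, 1 and 3 were measurable, with 0 calls by limma (0 and 2 at an unadjusted p under 0.05). Alternatives covered background correction, scaling, the filter on dim probes, the test, array weights, the replicate block, the probe of a gene and arrays left out. The files hold no mean signal column, so normexp (offset 50) used the median signal, and this and the removal of the 3 arrays highest in liver markers were chosen after seeing the data.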

Additional observations from a re-analysis of the deposited data

Results flagged for a closer look

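On 2 of the probes whose values are given for every array, 1 heart stood apart from the other 3 of its genotype by a gap that was large against the range of the group. For *Plk4* (A_52_P635976) this was SIRT1 KO replicate 3, at -2.57 where the other SIRT1 KO hearts lay between -2.83 and -2.80. For *Smc2* (A_51_P484537) it was WT replicate 2, at 0.31 where the other WT hearts lay between -0.11 and -0.05. The first lies toward the WT hearts and the second away from the SIRT1 KO hearts. There were 34 groups of 4 examined, which were both genotypes for the 13 member probes with values per array, for the *Cdc25a*, *Cdkn1a* and *Rfc4* probes and for the member medians, and chance sets apart about 1 in 20 of them.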

How the results depend on the processing

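The 2 member probes past the threshold became 6 with median scaling, 33 with no scaling between arrays, 1 with no filter on dim probes, 1 by the methods' analysis of variance, 4 with trended and robust limma, 6 with array weights, 1 with the replicate block and 0 without the 3 arrays highest in liver markers, and 1 to 9 with each array left out in turn. The share of all probes called, 4.88%, was 7.43% with median scaling, 24.8% with no scaling, 2.40% with no filter, 2.13% by the analysis of variance, 5.65% with trended and robust limma, 8.89% with array weights, 4.63% with the block, 1.52% without the 3 arrays and 2.56% to 7.12% with an array left out. At an unadjusted p under 0.05, the 16 of 70 became 26 with normexp (29.7% of all probes), 41 with median scaling (31.2%), 51 with no scaling (42.6%), 8 by the analysis of variance (20.1%), 30 with array weights (27.3%), 32 with the block (23.9%) and 10 without the 3 arrays (13.8%). Member genes past the threshold, 0 on the brightest probes, were 21 with no scaling, 2 with array weights, 2 on the dimmest probe of each gene, and 0 to 5 with an array left out. The 6 probes without overlap were 3 with normexp, 35 with no scaling, 18 without the 3 arrays and 6 to 34 with an array left out (17 without WT replicate 4, 34 without SIRT1 KO replicate 3). All of these were lower in SIRT1 KO hearts, and fewer hearts overlap less often by construction: of all probes, 5.08% were lower without overlap on the 8 arrays, 4.54% with normexp, 28.7% with no scaling, 13.6% without the 3 arrays, 11.1% without SIRT1 KO replicate 3 and 7.03% with WT replicate 4 left out. The median difference was -0.49 with no scaling and -0.40 with median scaling, where the medians of all probes were -0.21 and -0.12, and it was -0.28 against all probes under both and under the percentile scaling. It ran from -0.36 to -0.12 with an array left out. The 3 genes of the other cell cycle lists past the threshold were 5 with normexp, 9 with median scaling, 75 with no scaling, 5 with the stricter filter, 0 with no filter, 1 by the analysis of variance, 7 with trended and robust limma, 11 with array weights, 1 without the 3 arrays and 0 to 10 with an array left out. Over all probes, 1017 of 1250 calls were higher in SIRT1 KO hearts, against 676 of 1904 with median scaling, 639 of 6352 with no scaling, 672 of 1051 with quantile normalization and 753 of 1070 with cyclic loess. Of 320 named-probe values under an alternative, 257 kept their side of the threshold, 21 newly passed and none turned direction. The 42 lost were of the 5 called probes, 20 values each. Same-numbered hearts correlated at 0.20, 0.21, 0.06 and 0.14 after genotype means were removed, each best with its own number. What they share is not known. With the replicate block the *Kif20b* and *Cdc25a* calls held, and those of *Plk4*, *Rfc4* (limma, adjusted p = 0.0523 for both) and *Cdkn1a* (0.0800) were lost. Calls also lost with no filter on dim probes were *Plk4*, *Cdc25a*, *Rfc4* and *Cdkn1a* (limma, adjusted p = 0.0540 to 0.0794), and by the analysis of variance *Plk4*, *Cdc25a* and *Rfc4* (0.0650 to 0.0899). Without the 3 arrays *Kif20b*, *Plk4*, *Rfc4* and *Cdkn1a* were lost (limma, adjusted p = 0.159 to 0.258) at differences of -0.51, -0.50, -0.37 and -0.28, with 3 against 2 hearts left. The cause of these changes was not tested. The number of arrays limits the precision of all values, and both calls were on probes that were not the brightest of their gene. Normexp on the mean signal was not run, since the files hold no such column.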
